A study of Mus musculus with 3 samples.

Results

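The chemokine gene Cxcl12 and the genes of its receptors, Cxcr4 and Ackr3, were followed across cell classes of the mouse AGM (aorta-gonad-mesonephros), the embryonic tissue in which haematopoietic stem cells first form, budding from the endothelium of the aorta. The 3 genes are 3 of the 27998 rows of the deposited count matrix, taken by symbol, and each symbol has 1 row. They were chosen on measured values of these data: Cxcl12 for its level in the tissue around the aorta, and the receptors for their low counts. The levels of the 3 genes by cell class are therefore a description. RNA of single cells was captured in droplets by its 3′ end (10x Genomics, version 2) and each captured molecule was counted once by its unique molecular identifier (UMI). AGM tissue of E10.5 embryos, staged at 28 to 32 somite pairs, was pooled before 3 populations were sorted from it, each of them 1 sample. The T1-preHSC gate, for precursors of haematopoietic stem cells, took cells without the surface antigen Ter119, with CD31, VE-cadherin and cKit and with low CD41. The endothelial gate took the same cells without CD41. The niche population was all live cells without Ter119. No label ties a barcode to a sort, so the matrix was treated as 1 sample, and no test or p-value could be given between classes of cells. Every interval is an exact 95% interval that covers counting error only.

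In all, 78653331 UMIs were counted in 9492 barcodes, and the median barcode had 7544 UMIs from 2488 genes. The barcodes carry 8 suffixes, called libraries 1 to 8 here. Medians ran between 6548 and 8698 UMIs in libraries 1 to 6 and were 14725.5 and 15593 UMIs in libraries 7 and 8, which held 104 and 164 barcodes. After filters and removal of doublets 8915 cells were kept. They fell into 36 clusters, of which 32 were named from marker genes, as "X-like", in 16 classes. The 3 genes were neither markers nor among the genes used for clustering. The niche classes were all named classes other than endothelial-like, blood and germ cell-like ones, with 6125 cells, and endothelial-like cells numbered 1954. All 12 endothelial markers (Kdr, Cdh5, Pecam1 and others) were raised in clusters 0, 2 and 28 of the endothelial-like class, and 11 of 12 in cluster 29. All 8 smooth muscle markers were raised in the 49 smooth muscle-like cells, whereas 4 of 8 sclerotome markers were raised in the 940 sclerotome-like cells. Among barcode sequences, 54 occurred in 2 libraries each, and were treated as separate cells.

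Cxcl12 is a secreted chemokine that is held on heparan sulfate chains of cell surfaces and matrix, and cells that carry its receptor move towards it or are kept near it. Cxcr4 is the receptor that signals through inhibitory G proteins. Ackr3, also called Cxcr7, binds the same ligand but works mainly through arrestins, and takes the ligand up from the surroundings. In the adult bone marrow, stromal cells that make Cxcl12 keep haematopoietic stem cells in place. In the embryo, Cxcr4 is known from arterial endothelium, migrating germ cells, motor neurons and other neurons, and haematopoietic cells. In the GENCODE M21 annotation of GRCm38 (mm10), Cxcl12 lies on the plus strand at chr6:117168535-117181367 and has 3 coding transcripts. Cxcr4 lies on the minus strand at chr1:128588199-128592293, and Ackr3 on the plus strand at chr1:90203980-90216751.

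The ligand was plentiful in the matrix and the receptors were nearly absent from it. Cxcl12 had 4628 UMIs in 1848 barcodes, 58.8 CPM (its share of UMIs scaled to a total of 1000000; 57.2 to 60.6), with up to 16 UMIs in 1 barcode. Cxcr4 had 39 UMIs in 39 barcodes and never more than 1 in a barcode, which is 0.496 CPM (0.353 to 0.678). Ackr3 also had 39 UMIs, in 37 barcodes, with at most 2 in a barcode. More UMIs than either receptor were counted for 13719 of the 27998 rows, or 49.0%, and more than for Cxcl12 for 2404 rows, or 8.59%. In libraries 1 to 8 in turn, Cxcl12 had 1021, 1268, 964, 1259, 55, 59, 0 and 2 UMIs. Cxcr4 had 6, 7, 6, 11, 3, 6, 0 and 0 UMIs in the same libraries. Ackr3 had 11, 6, 9, 12, 0, 1, 0 and 0 UMIs. Cxcl12 and Ackr3 were thus counted almost wholly in libraries 1 to 4, which hold most niche cells, while the few Cxcr4 UMIs were spread over libraries 1 to 6.

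Cxcl12 was counted in niche classes and hardly at all in endothelial-like, blood or germ cell-like cells. In kept cells the niche classes held 4327 of its 4347 UMIs, 99.5%. Its level was 90.4 CPM (87.7 to 93.1) in niche classes, against 0.562 CPM (0.257 to 1.07; 9 UMIs) in endothelial-like cells. On the scale log2((CPM + 10) / (CPM + 10)) this is 3.25, and it was 2.82, 3.34, 4.13 and 3.99 in libraries 1, 3, 5 and 6, those in which both groups had 20 cells or more. Libraries 5 and 6 held 949 and 902 of the 1954 endothelial-like cells, and libraries 1 to 4 most niche cells. The pooled value is therefore largely a contrast between libraries. Within libraries it rests on few cells: 36 and 20 endothelial-like cells in libraries 1 and 3, and 36 and 38 niche cells in libraries 5 and 6. A gene was called where the pooled value was at least 1 in size and the higher level reached 50 CPM. Its direction also had to be the same in libraries 1, 3, 5 and 6. By that rule 5.2% of the 3233 genes tested were called higher in niche classes and 9.53% lower. Cxcl12 was among the 168 genes called higher, in a contrast that was used to choose it, and neither receptor reached 50 CPM in either group. The 9 endothelial-like UMIs lay in 6 cells, 4 of them in 1 cell of library 6. With doublets left in, the endothelial-like level was 1.27 CPM, and it was 1.09 CPM with libraries weighted equally.

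Among the 15 named classes with at least 20 cells, smooth muscle-like cells had the highest level of Cxcl12, 440 CPM (377 to 511; 173 UMIs in 49 cells). Their leading genes were those of contractile cells, such as Acta2, Tagln and Cnn1, together with the fibrillar collagens Col1a1 and Col3a1. Libraries 1 to 6 gave 251, 495, 535, 453, 420 and 464 CPM from 4 to 14 cells each. Library 1 was the lowest, and its interval (140.5 to 414) overlaps those of libraries 2 to 6. Sclerotome-like cells, named for the somite derivative that forms vertebrae and ribs and led by genes such as Pax1 and Pax9, came next with 231 CPM (220 to 242). Their libraries 1 to 4 gave 240, 244, 229 and 217 CPM, a narrow range that lies below all 6 smooth muscle-like values. Because they were many, sclerotome-like cells held 40.5% of all kept Cxcl12 UMIs, mesenchymal-like cells 36.5% and smooth muscle-like cells 3.98%.

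**Figure D1:**
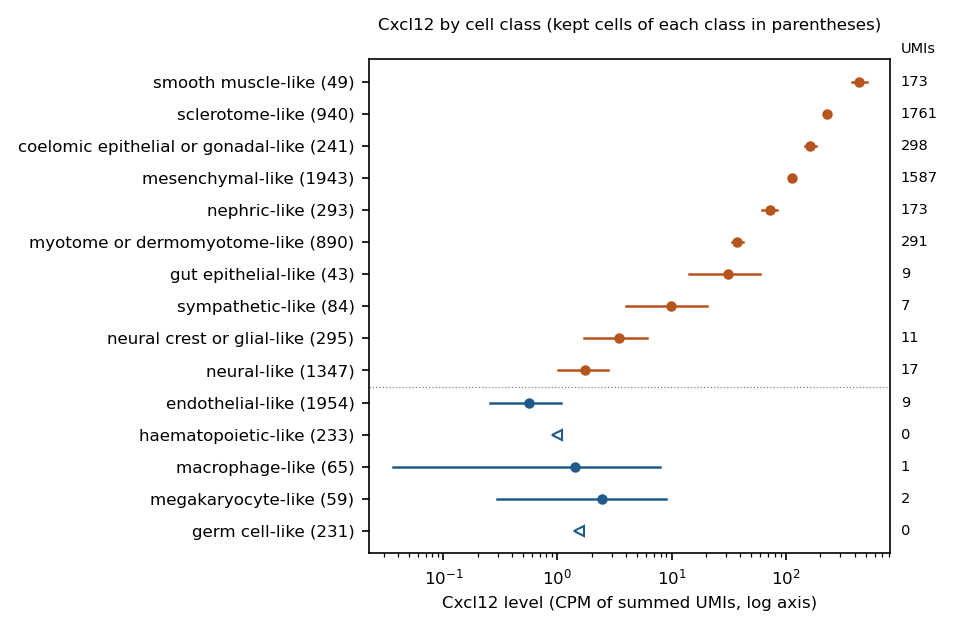
Level of Cxcl12 in CPM (log axis) in the 15 named classes with at least 20 cells, with the number of cells beside each name and of UMIs at the right. Points are levels, lines exact 95% Poisson intervals, and open triangles the level that 3 UMIs would give where 0 were counted; niche classes stand above the dotted line (orange) and endothelial-like, blood and germ cell-like classes below it (blue). Levels run over the niche classes between 440 CPM in smooth muscle-like and 1.74 CPM in neural-like cells.

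Below these, coelomic epithelial or gonadal-like cells, which carry Wt1 and Nr5a1, had 164 CPM (146 to 184), with 145, 163, 183 and 169 CPM in libraries 1 to 4. Mesenchymal-like cells had 114 CPM (108 to 120) and nephric-like cells, named from markers of the embryonic kidney, 72.5 CPM (62.1 to 84.1). Myotome or dermomyotome-like cells had 37.7 CPM (33.5 to 42.3). With the clusters used here, the counting intervals of neighbours in the order did not overlap down to this class. From here on each class overlapped the next: gut epithelial-like cells had 31.1 CPM (14.2 to 58.9), sympathetic-like cells 9.92 CPM (3.99 to 20.4) and neural crest or glial-like cells 3.43 CPM (1.71 to 6.14). Of the 9 UMIs in gut epithelial-like cells, 5 came from 1 cell each of libraries 5 and 6, and the level was 18.0 CPM without library 6 and 48.1 CPM without library 4. Of the 7 UMIs in sympathetic-like cells, 5 came from 1 cell of library 4, without which the level was 4.22 CPM. Neural-like cells had 1.74 CPM (1.01 to 2.78) although they were 1347 in number.

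Mesenchymal-like cells were uneven, since 1 of their 4 clusters held most of the Cxcl12. Cluster 6 (630 cells), whose leading genes were Cxcl12 itself, Fibin and Col9a1, had 300 CPM (284 to 316), and 279, 321, 305 and 278 CPM in libraries 1 to 4. These values lie above those of sclerotome-like cells in the same libraries. Cluster 7 (338 cells), led by Hand1 and with Foxf1, genes of the mesoderm around the gut, had 70.9 CPM (59.8 to 83.6). Cluster 13 (222 cells), led by Pitx1 and with the limb bud genes Lmx1b and Shox2, had 20.1 CPM (14.5 to 27.0). The largest, cluster 3 (753 cells), led by Wnt2 and Ptn, had 14.7 CPM (11.6 to 18.3). Where clusters were drawn more coarsely (resolution 0.5) the mesenchymal-like level was 47.7 CPM, with 380 of the 630 cells of cluster 6 then in the sclerotome-like class. With finer clusters (resolution 2) it was 89.7 CPM and 368 of these cells were left unnamed.

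**Figure D2:**
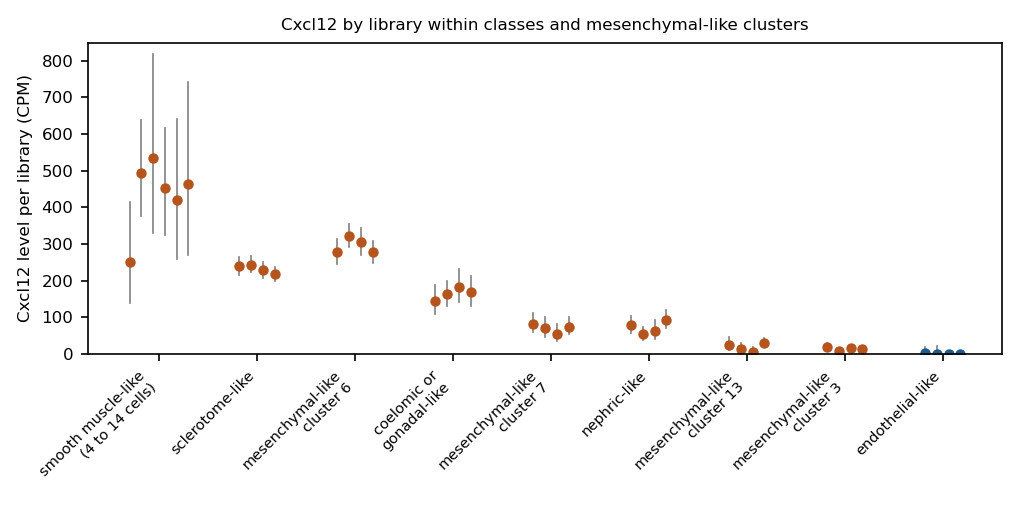
Level of Cxcl12 in CPM in each library, 1 point per library with its exact 95% Poisson interval, for 5 classes and the 4 mesenchymal-like clusters; libraries with at least 20 cells are drawn, except for smooth muscle-like cells, where libraries held 4 to 14. Libraries of cluster 6 lie between 278 and 321 CPM, while those of clusters 3 and 13 lie below 30 CPM.

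The muscle lineage was graded as well. Cluster 18, with the muscle determination genes Myod1 and Myog, had 72.9 CPM (57.9 to 90.6). Cluster 5, led by Wnt16 and Pax3, a gene of muscle progenitors, had 33.6 CPM (28.98 to 38.7). Cluster 21, with contractile genes such as Acta1 and Ttn, had 20.2 CPM (11.97 to 31.9). In the nephric-like class, cluster 14, with Osr1 and Pax8, had 80.9 CPM (67.4 to 96.3), and cluster 20, with the epithelial duct genes Gata3 and Calb1, had 56.7 CPM (41.6 to 75.4). The intervals of the 2 nephric-like clusters overlap. Cluster 14 (187 cells) had 3 of 8 nephric markers raised and cluster 20 (106 cells) all 8, so the name is weaker for cluster 14. Nephric-like cells taken by a marker gate on each cell in place of clusters had 38.3 CPM.

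In the 4 classes with the highest levels the share of cells with a Cxcl12 UMI had the same order as the level. It was 85.7% of smooth muscle-like cells (72.8 to 94.1%), 69.8% of sclerotome-like (66.7 to 72.7%), 53.9% of coelomic epithelial or gonadal-like (47.4 to 60.4%) and 32.1% of mesenchymal-like cells (29.99 to 34.2%). Over all cells the order did not hold throughout, but the exceptions lay within overlapping intervals. Nephric-like cells, with a lower level than mesenchymal-like cells, also had a share of 32.1% (26.8 to 37.8%). Neural crest or glial-like cells had 3.73% (1.88 to 6.57%), and sympathetic-like cells, with a higher level, 3.57% (0.743 to 10.1%). In endothelial-like cells the share was 0.307% (0.113 to 0.667%). Of 233 haematopoietic-like cells 0 had a UMI, which allows a share of such cells of up to 1.29% (3 cells). Median depths were 7665 UMIs in endothelial-like cells and 7748 in sclerotome-like cells. Cells were then thinned to 3000 UMIs, which left out shallower ones, such as 72 endothelial-like, 91 mesenchymal-like and 25 sclerotome-like cells. In the remaining cells the shares were 58.3% of smooth muscle-like, 44.2% of sclerotome-like and 34.3% of coelomic epithelial or gonadal-like cells. They were 21.8% of mesenchymal-like and 0.159% of endothelial-like cells. Both exceptions were then gone, with 16.7% of nephric-like, 2.41% of sympathetic-like and 0% of neural crest or glial-like cells, though intervals still overlapped. Neural-like cells then had 0.3175%, above neural crest or glial-like cells in spite of a lower level. In haematopoietic-like cells, led by Spi1, Hlf and Runx1, 0 of 3042822 UMIs were Cxcl12, which allows up to 0.986 CPM. In germ cell-like cells 0 of 1932830 were, which allows up to 1.55 CPM. Macrophage-like cells had 1 UMI and megakaryocyte-like cells 2.

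Cxcr4, the signalling receptor, was not counted in kept cells of the blood classes and hardly in endothelial-like cells. Of its 36 kept UMIs, 19 were in neural-like cells, 5 in germ cell-like, 4 in neural crest or glial-like, 2 each in smooth muscle-like, myotome or dermomyotome-like and endothelial-like cells, and 2 in unnamed clusters. Neural-like cells held 52.8% of the Cxcr4 UMIs and 13.5% of all UMIs, and endothelial-like cells 5.56% and 22.0%. The level was 1.94 CPM (1.17 to 3.03) in neural-like cells and 2.59 CPM (0.840 to 6.04) in germ cell-like cells. Smooth muscle-like cells had 5.09 CPM, but from 2 UMIs (0.616 to 18.4). Within neural-like cells, cluster 17 (119 cells), with Slc18a3, the vesicular transporter of acetylcholine that motor neurons use, held 7 UMIs, or 7.03 CPM (2.83 to 14.5). Cluster 4 (708 cells), with Pax6 and Hes5, genes of neural progenitors, held 8 UMIs, or 1.49 CPM (0.644 to 2.94). Most Cxcr4 UMIs were thus in classes of the nervous system and the germ line, and the counts are too few to order these classes.

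In endothelial-like cells the 2 Cxcr4 UMIs gave 0.125 CPM (0.0151 to 0.451), against 0 UMIs in haematopoietic-like cells, where 3 counts would be 0.986 CPM. Both were counted in library 6, so the level was 0 CPM without that library. They lay in 1 cell of cluster 28 (Esm1, Adm; 32 cells) and 1 of cluster 29 (Gja4, Gja5, gap junction genes of arteries; 14 cells). Endothelial-like cells were split by the sum of arterial marker UMIs (Gja5, Hey1, Dll4, Sox17 and others) against venous ones (Nr2f2, Ephb4, Aplnr and others). Both UMIs were in the 71 cells with more arterial UMIs (489085 UMIs), and 0 were in the 1840 cells with more venous UMIs (15248108 UMIs). The remaining 43 cells had equal sums, and 136 cells were within 1 UMI of equal. The split compares sums of different genes, and a venous marker such as Aplnr (297 CPM in endothelial-like cells) outweighs an arterial one such as Sox17 (19.1 CPM), so the sizes of these groups depend on the markers and are not shares of arterial and venous cells. The 2 UMIs are too few to set a level in the cells with more arterial UMIs. In those with more venous UMIs, the count of 0 allows up to 3 counts in 15248108 UMIs. No Cxcr4 UMI was counted in macrophage-like (65 cells), megakaryocyte-like (59), sympathetic-like (84), nephric-like (293), coelomic epithelial or gonadal-like (241), sclerotome-like (940) or mesenchymal-like cells (1943). A count of 0 allows up to 0.215 CPM in mesenchymal-like cells, and up to 0.393 CPM in sclerotome-like cells.

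Ackr3, the receptor that takes up the ligand, was counted in neural and muscle classes. Of its 35 kept UMIs, 14 were in neural-like cells (1.43 CPM, 0.781 to 2.40; 0.674 CPM with the marker gate), 12 of them in cluster 4, and 10 in myotome or dermomyotome-like cells (1.29 CPM, 0.621 to 2.38). Another 5 were in unnamed clusters, and 2 in mesenchymal-like cells. Sclerotome-like, coelomic epithelial or gonadal-like, nephric-like and neural crest or glial-like cells had 1 each. Within the muscle lineage, clusters 5, 18 and 21 had 3, 3 and 4 UMIs. Of 16007798 UMIs in endothelial-like cells 0 were Ackr3, which allows up to 0.187 CPM. Haematopoietic-like, macrophage-like, megakaryocyte-like, germ cell-like and smooth muscle-like cells had 0 as well. In that order this allows up to 0.986, 4.29, 3.69, 1.55 and 7.63 CPM. All but the limit of haematopoietic-like cells are above the 1.43 CPM of neural-like cells, so those zeros cannot show a lower level. Of the 8915 kept cells, 1738 had a UMI of Cxcl12, 36 of Cxcr4 and 33 of Ackr3. In no kept cell were both receptors counted, but with so few cells of each, 0 shared cells does not set them apart. Cxcl12 and Cxcr4 were counted together in 4 cells, and Cxcl12 and Ackr3 in 5, which are likewise too few to interpret.

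**Figure D3:**
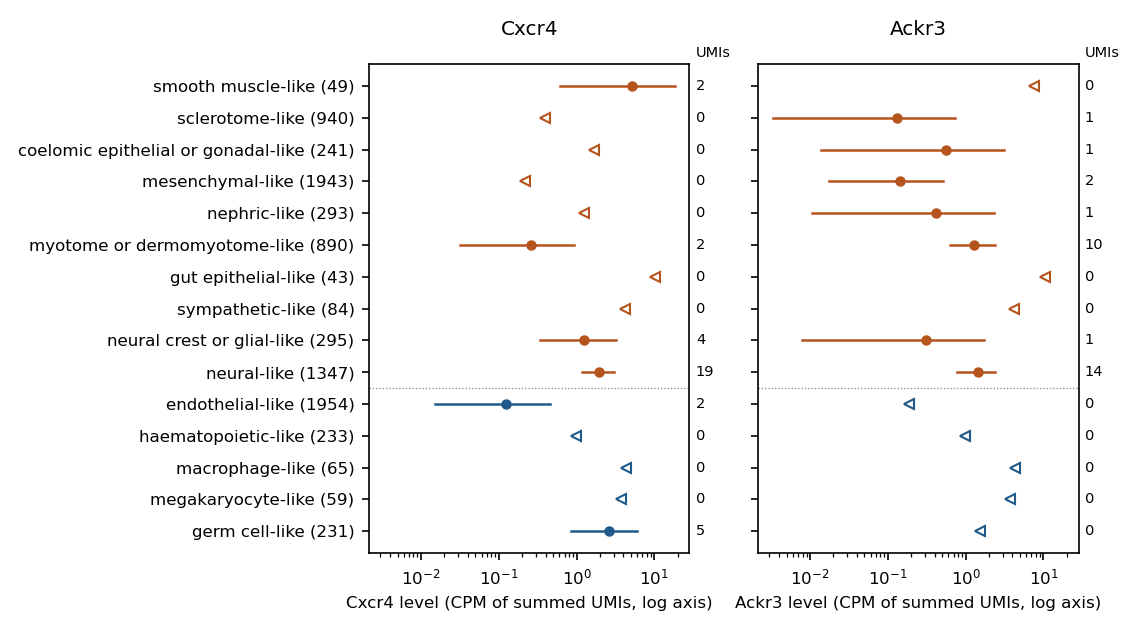
Levels of Cxcr4 (left) and Ackr3 (right) in CPM (log axes) in the same classes, with the UMIs of each at the right of its panel. Points are levels, lines exact 95% Poisson intervals and open triangles the level that 3 UMIs would give where 0 were counted. No class holds more than 19 UMIs of Cxcr4 or 14 of Ackr3.

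Several measurements bear on how these rows were counted. The rows of both receptors exist and hold counts, Cxcr4 in 6 of the 8 libraries and Ackr3 in 5. No other annotated gene overlaps any of the 3 genes in the M21 annotation. Of the distinct stretches of 31 bases in their annotated transcripts, 2 of 1805 in Cxcr4, 0 of 3344 in Ackr3 and 9 of 8204 in Cxcl12 also occur in transcripts of other genes. The polyadenylation signal AATAAA, searched on the transcript strand, starts 24 bases before the annotated end of Cxcr4-201 and 24 bases before that of Cxcl12-201. In Ackr3-201 it is not in the last 30 bases, and the nearest starts 1050 bases before the annotated end. Among 58793 coding transcripts, 35.5% hold it in the last 30 bases. The next coding genes on either side of Cxcr4, Dars and Thsd7b, had 5180 and 50 UMIs. Those of Ackr3, Iqca and Cops8, had 9 and 11051 UMIs. Whether reads of either receptor were lost before or during counting was not tested, since reads were not analysed here.

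The other genes of the family show what low and high rows looked like. Of 23 chemokine receptor rows, 5 had 0 UMIs, 16 had between 1 and 39 and 2 had more, with a median of 11 UMIs. Of all 27998 rows, 29.1% had 0 UMIs and 51.0% had 39 or fewer. Cx3cr1, the fractalkine receptor of macrophages, was the only chemokine receptor that reached 50 CPM in a named class. It had 499 CPM (448 to 554) in macrophage-like cells. Cx3cr1 is also a macrophage marker here, so its level there is tied to the naming of that class. Ackr1, a scavenging receptor, had 110 UMIs in all and 2.25 CPM in endothelial-like cells. Cxcr3 had 35 UMIs, 16 of them in haematopoietic-like cells (5.26 CPM, 3.01 to 8.54). Other receptors of the G-protein-coupled superfamily, 16 genes chosen after values were seen, had between 66 and 5389 UMIs. Aplnr, the apelin receptor and likewise a marker of the class, had 297 CPM (289 to 306) in endothelial-like cells. S1pr1, a receptor for sphingosine 1-phosphate, had 45.5 CPM there. Others of the 16 were low in endothelial-like cells, such as S1pr3 (0.250 CPM), Ednra (1.19 CPM), P2ry1 (2.44 CPM) and C3ar1 (0.0625 CPM). Adgrg1, an adhesion receptor of blood progenitors, had 246.5 CPM in haematopoietic-like cells (229 to 265), where Calcrl, the receptor of adrenomedullin and related peptides, had 123 CPM (111 to 136).

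**Figure D4:**
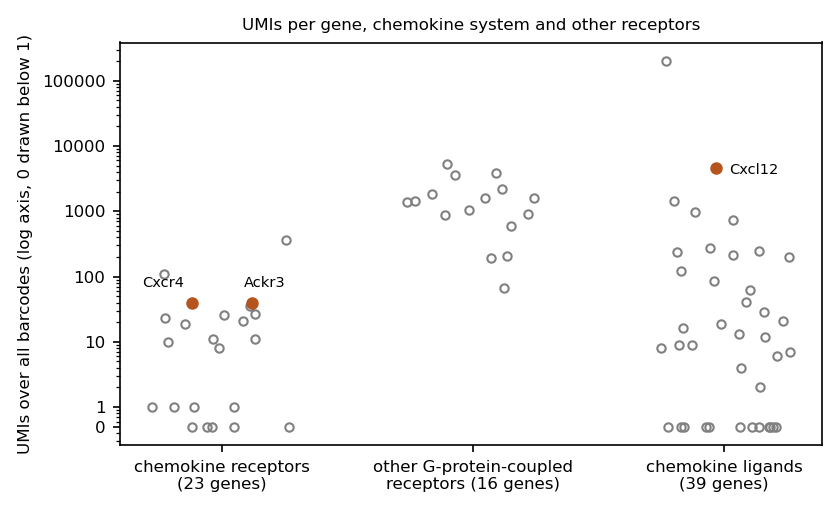
UMIs over all barcodes (log axis, 0 drawn below 1), 1 point per gene, for 23 chemokine receptors, 16 other G-protein-coupled receptors chosen after values were seen, and 39 chemokine ligands. Cxcr4 and Ackr3, at 39 UMIs each, lie above the median chemokine receptor (11) and below each of the other receptors (66 to 5389), and Cxcl12 had 4628.

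Of 39 chemokine ligand rows 12 had 0 UMIs, beside 29.1% of all rows, and 9 reached 50 CPM in a named class. Apart from Cxcl12 most of these were highest in macrophage-like cells. Ccl3 had 1026 CPM in macrophage-like cells (952 to 1104), Ccl4 363 (212 with libraries weighted equally), Ccl9 129, Ccl2 121 and Ccl6 90.0 CPM. Ccl9 also had 44.7 CPM in haematopoietic-like cells, and 90 of its 232 kept UMIs were in macrophage-like cells. Cxcl14, a chemokine of epithelia, had 145 CPM in gut epithelial-like cells, 49.3 CPM without library 3 and 7.91 CPM with the marker gate per cell. Ccl17 had 50.4 CPM in megakaryocyte-like cells, 34.4 CPM without library 8, 10.48 CPM with doublets left in and 4.73 CPM with the marker gate. Mif, a cytokine known as another ligand of Cxcr4, was counted in nearly every barcode, with 2806 CPM in niche classes and 2191 CPM in endothelial-like cells, and was not called. Of the chemokine ligands and receptors that reached 50 CPM in 1 of these groups, Cxcl12 and Mif were tested and Cxcl12 was called higher.

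Genes that hold or cut Cxcl12 outside the cell were called in both directions. Of 22 such genes, which include other ligands of the receptors, 8 were tested, 3 were called higher and 2 lower, beside 5.2% and 9.53% of all genes tested, with a median log2 of 0.36 against 0.06 over all 3233 genes tested. Gpc3, a glypican, a heparan sulfate proteoglycan anchored to the membrane, had 195 CPM in niche classes and 2.19 CPM in endothelial-like cells (log2 4.07). Gpc6, another glypican, had 66.8 CPM in niche classes and 0.937 CPM in endothelial-like cells (2.81). Sdc1, a syndecan, which carries heparan sulfate across the membrane, had 84.8 CPM in niche classes and 20.05 CPM in endothelial-like cells (1.66). All 3 were at their highest in smooth muscle-like cells, the class with the highest level of Cxcl12. Hspg2, perlecan of the basement membrane, was lower, with 12.5 CPM in niche classes and 163 CPM in endothelial-like cells (log2 -2.95). Mmp2, a protease known to cut Cxcl12, was called lower too (-1.14), with smaller differences of -1.10 to -0.346 within the libraries compared. Adm, adrenomedullin, a further ligand that Ackr3 binds, had 0.835 CPM in niche classes and 11.4 CPM in endothelial-like cells, under the level for a test.

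Of 12 regulators linked to the 3 genes, which are transcription factors and the receptor Notch1, 5 were tested and 3 were called higher, beside 5.2% of all genes tested. Their median log2 was 1.001, against 0.06 over all genes tested. Prrx1, a factor of limb and body wall mesenchyme, had 91.8 CPM in niche classes and 0.437 CPM in endothelial-like cells (3.29), and was highest in smooth muscle-like cells. Pax3 had 55.4 CPM in niche classes and 0.312 CPM in endothelial-like cells (2.66), and was highest in myotome or dermomyotome-like cells. Prrx1 is a mesenchymal marker and Pax3 a myotome or dermomyotome marker, and both were used to name niche classes. Their calls, and the leading class of Pax3, are therefore partly set by that naming. Pax3 lost its call with a marker gate per cell (2.56) and with libraries (2.40) or cells (2.56) weighted equally. Ebf1, which in mouse bone marrow marks stromal cells rich in Cxcl12, had 93.4 CPM in niche classes and 41.7 CPM in endothelial-like cells (1.001), at the threshold, and was highest in neural-like cells. Ebf1 lost its call under 9 of the 18 alternatives tried, in which its value ran from 0.90 to 1.08. Of 14 support genes of bone marrow Cxcl12 cells, 5 were tested, 1 was called higher and 2 lower, beside 5.2% and 9.53% of all genes tested, with a median log2 of -0.67. Ptn, pleiotrophin, a growth factor, had 471 CPM in niche classes and 3.50 CPM in endothelial-like cells (5.15). Igf1, insulin-like growth factor, had 38.0 CPM in niche classes and 155.5 CPM in endothelial-like cells (-1.78). Kitl, stem cell factor, had 18.8 CPM in niche classes and 67.4 CPM in endothelial-like cells (-1.43; -0.90 and not called with libraries weighted equally). Within the libraries compared its difference was smaller, -1.33 to -0.327. Kitl was highest in the coelomic epithelial or gonadal-like class (107.5 CPM). In smooth muscle-like cells Kitl had 15.3 CPM (5.601 to 33.2). The class with the highest level of Cxcl12 was thus not that with the highest level of Kitl. Cluster 6 had 39.7 CPM of Kitl (34.0 to 46.0), while Ptn was highest in cluster 3, with 1956 CPM, the mesenchymal-like cluster with the lowest Cxcl12 value. Bmp4, a growth factor of the BMP family, had 216 CPM in smooth muscle-like cells (173 to 267).

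Of 22 genes of receptor signalling and desensitisation 6 were tested, 0 were called higher and 2 lower, beside 5.2% and 9.53% of all genes tested, with a median log2 of -0.59. With so few tested, 0 called higher does not set the group apart. Gnai2, an inhibitory G protein subunit through which Cxcr4 signals, had 378 CPM in niche classes and 1086 CPM in endothelial-like cells (-1.50). Rgs2, a regulator that shortens G protein signals, had 19.4 CPM in niche classes and 168 CPM in endothelial-like cells (-2.60). Of 10 adhesion partners of homing 2 were tested and both were called lower, beside 9.53% of all genes tested, with a median log2 of -1.61. Itgb1, an integrin subunit, had 85.4 CPM in niche classes and 202 CPM in endothelial-like cells (-1.15). Its highest level, 315 CPM, was in smooth muscle-like cells, a niche class. F11r, a junctional adhesion molecule, had 23.03 CPM in niche classes and 128 CPM in endothelial-like cells (-2.07). It too was highest in a niche class, coelomic epithelial or gonadal-like cells, with 181 CPM. Vcam1, the adhesion molecule of marrow stromal cells, had 2.86 CPM in niche classes and 0 UMIs in endothelial-like cells, under the level for a test.

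The genes most like Cxcl12 over the 15 classes were Epha7, an ephrin receptor (Pearson's r of log2(CPM + 10) 0.95 among 5115 genes), Snai2, a factor of mesenchymal cells (0.94), Sdc2, a syndecan (0.94), Cdh11, a mesenchymal cadherin (0.91), and Rcn3, a calcium-binding protein of the secretory pathway (0.91). All 5 were highest in smooth muscle-like cells, where Rcn3 had 351 CPM and Cdh11 137 CPM. The 15 points differ in depth and number of cells, and share libraries. Neither receptor reached the 50 UMIs asked for such a comparison.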

How the data were processed

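The authors deposited 1 pooled matrix of raw counts, UMIs of each gene in each barcode, without normalisation. Cell Ranger, with no version, and mm10 are named per the submitters' processing notes. The deposited name files hold no measurement. The labels give 3 populations on 2 lanes each, which is fewer than the 8 barcode suffixes, so suffixes were not matched to sorts. Whether libraries were thinned to equal depth is not stated.

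Barcodes were kept from 1000 UMIs and 500 genes up, with no more than 10% of UMIs mitochondrial (9383), less the 5% of each library most like simulated doublets (468; the labels state a rate below 5%). Leiden clustering (leidenalg 0.10.2, igraph 0.11.9, scipy 1.17.1, numpy 2.4.6, Python 3.11.15) at resolution 1 used 2000 variable genes, reduced to 30 principal components, and 15 neighbours. The 3 genes, chemokine genes, and mitochondrial and ribosomal protein genes were left out of the variable genes. Other list genes were left out too, unless they were markers. List genes that were also markers, such as Pax3 and Prrx1, could enter. A cluster took the name of the list with the largest share of raised markers, of 19 lists with 166 genes; a raised marker had 20 CPM or more and was at least 1 log2 unit over the other clusters, and at least 3 were needed. Clusters whose leading genes held more markers of another list were split again or left unnamed (238 cells). This naming rule was set after clusters had been seen, and other names would move the values of classes.

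UMIs were summed by class and given as CPM with exact Poisson intervals, and shares of cells with exact Clopper-Pearson intervals; a count of 0 is read as up to 3 counts. The call rule was tested on simulated data. The members, lists, markers and named genes were chosen with earlier results of these data known. Named were the 3 genes, the 5 genes most like Cxcl12, the chemokine genes that reach 50 CPM, and up to 4 called genes of every other list, by size of the log2 ratio. Mmp2, Adm, Vcam1, Bmp4, Sox17, Notch1, Cxcr3, Ackr1 and the 16 other receptors were added after values were seen. Alternatives changed the clustering, filters, weights, pseudocount and libraries.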

Additional observations from a re-analysis of the deposited data

How the results depend on the processing

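The log2 ratio of Cxcl12 between niche classes and endothelial-like cells kept its direction and its call under every alternative tried, and ran between 3.12 and 3.66 apart from 5.87 with a pseudocount of 1 CPM. Leaving out each library in turn gave 3.21 to 3.29 for it. Leaving out libraries gave 416 to 474 CPM for smooth muscle-like and 226 to 236 CPM for sclerotome-like cells. It gave 0 to 0.214 CPM of Cxcr4 in endothelial-like cells, where library 6 held both UMIs, and 0 CPM of Ackr3. Genes called higher numbered 166 to 171 and called lower 306 to 313 in these runs. The smooth muscle-like level moved beyond its counting interval to 368 CPM with a marker gate per cell and to 577 CPM without mitochondrial and ribosomal protein genes. The sclerotome-like level moved to 249 CPM with a marker gate per cell, to 249 CPM with cells weighted equally and to 323 CPM without these genes. The coelomic epithelial or gonadal-like level moved to 140 CPM with the marker gate and to 231 CPM without these genes. It moved to 209 CPM without doublet removal and to 217 CPM with 3000 variable genes, where sclerotome-like cells had 232 CPM. The order of these classes was kept, but the gap was then small. Without doublet removal Cxcl12 had 5.59 CPM in neural-like cells, and in sympathetic-like cells it ran between 3.05 CPM with a stricter filter on barcodes and 23.9 CPM with the marker gate. Cxcr4 in haematopoietic-like cells was 0.203 CPM without doublet removal and 0.300 CPM with the stricter filter. Both values lie below the 0.986 CPM that the count of 0 allows. In no library did smooth muscle-like cells reach 20, so the alternative with equal library weights gives no value for them. No paired analysis was possible because the deposited matrix is 1 sample with no replicate numbers tied to sorts. Smooth muscle-like cells were too few to resolve receptor levels of a few CPM.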
